A study of Rattus norvegicus with 2 samples.

Results

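The genes described here are the transcription factors, feedback regulators, amino acid enzymes, transporters and tRNA synthetases of the ATF4 arm of the integrated stress response, measured in rat liver after senecionine. They were chosen by name, as a list of 46 genes, with earlier results of these data known. They were looked up among the 13667 genes that could be named on the array through the RefSeq transcript accession of a probe. Of the 46, 42 had a named probe and 33 were measured, meaning that the scanner software called a probe of the gene well above background in both pools. A further 6 were well above background in the senecionine pool only, and 3 (Psat1, Slc7a3 and Stc2) on neither. Atf5, Trib3, Slc7a1 and Gars1 had no nameable probe and are not analysed here.

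Livers came from Sprague Dawley rats given senecionine, a pyrrolizidine alkaloid that damages the liver, by the intragastric route at 35 mg/kg, or sodium chloride. Both were sampled at 36 h. RNA of 3 animals was pooled in each group and each pool was hybridised to 1 one-colour (Cy3) Agilent array. The series' text also mentions 2 independent experiments, taken here to mean the 2 arrays. There are therefore no replicates, the spread between animals cannot be estimated, and no test was possible. The sex and age of the animals are not given in the sources used here. Each value below compares 2 arrays.

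ATF4 is a transcription factor whose protein is made when the initiation factor eIF2 is phosphorylated, which slows most translation but favours the Atf4 message. The kinases that phosphorylate eIF2 respond to uncharged tRNA, to unfolded protein in the endoplasmic reticulum, to double-stranded RNA and to lack of haem. ATF4 then raises genes that import and make amino acids, charge tRNAs and, through Ddit3 and Ppp1r15a, promote cell death or restart translation. In liver this response is known from amino acid deprivation, mitochondrial damage and toxic injury.

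Many targets of ATF4 carry a composite element that ATF4 binds together with a C/EBP protein, written TGATGNAAN, where N is any base. The stretches below are the parts of member promoters that hold it. They are shown because these genes are grouped with targets of 1 factor and the element can be read in them. They come from RefSeq promoter windows of build GRCr8, run 5′ to 3′ on the gene's own strand and end before the annotated start of the gene. Capitals mark the element, which reads as written above in Ppp1r15b, Pycr1 and Slc7a1 and as its reverse complement in the others.
Chac1 (chr3:126795938-126795996, plus strand): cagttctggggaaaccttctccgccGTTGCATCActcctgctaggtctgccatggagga
Slc1a4 (chr14:98761765-98761812, minus strand): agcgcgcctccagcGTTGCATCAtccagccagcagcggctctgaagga
Tars1 (chr2:62114803-62114861, minus strand): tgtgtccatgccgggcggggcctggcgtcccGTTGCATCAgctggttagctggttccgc
Iars1 (chr17:15193653-15193711, minus strand): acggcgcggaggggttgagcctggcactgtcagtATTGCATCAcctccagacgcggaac
Mars1 (chr7:65023754-65023812, minus strand): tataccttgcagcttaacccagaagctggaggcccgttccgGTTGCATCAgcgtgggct
Aars1 (chr19:55908344-55908402, plus strand): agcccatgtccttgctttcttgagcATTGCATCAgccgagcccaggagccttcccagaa
Nupr1 (chr1:190645924-190645982, minus strand): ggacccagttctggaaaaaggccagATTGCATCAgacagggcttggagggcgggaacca
Ppp1r15b (chr13:47129797-47129855, plus strand): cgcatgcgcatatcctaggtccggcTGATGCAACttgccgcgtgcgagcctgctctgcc
Pycr1 (chr10:106420910-106420968, minus strand): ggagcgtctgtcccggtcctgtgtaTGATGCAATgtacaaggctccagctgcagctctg
Slc7a1 (chr12:11664429-11664487, plus strand): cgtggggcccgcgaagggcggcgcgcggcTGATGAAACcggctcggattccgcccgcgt

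The element was searched on both strands of windows from 250 bases before to 50 bases after each gene's start. Windows were given for 39 of the 46 members, and 14 of these genes held it (35.9%), against 4.14% of the 27457 genes in the table and 3.97% of its 33469 windows. With the stricter letters TGATGCAAN it was found in 12 members (30.8%) and in 0.823% of all genes (0.792% of windows). The other 4 members with a match were Trib3, Nars1, Cars1 and Yars1, the last 2 with the match after the annotated start. Of the 15 cytosolic synthetases with a window 7 held the element, and of 16 mitochondrial synthetases with a window none did. A match shows only that these letters are present. The list was drawn up by name and largely from known targets, so the share describes the list. The 10 measured members with the element had a median log2 ratio of 0.79 and the 19 measured members with a window but no match one of 0.79 as well. At least 2-fold higher were 1 of those 10 and 8 of those 19, against 11.2% of all measured genes. A further 2 members with the element (Slc1a4 and Tars1) and 3 without a match (Mthfd2, Vldlr and Vars1) were detected after senecionine only. They are not in these counts. Asns, Ddit3 and Ppp1r15a were among those without a match in these windows. An element outside a window would not be found, so no match does not mean that a gene lacks one.

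The log2 ratio is senecionine minus control after each array was divided by its own 75th percentile of signal, 101 intensity units in the control pool and 134 in the senecionine pool. Signals below are in unscaled intensity units, so their plain quotient, senecionine over control, is larger than the scaled ratio. The error after a ratio is the spot error of the scanner software for the pair of spots. It is technical and says nothing of the spread between animals.

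The arrays differed in how much they detected, with 44.4% of non-control spots well above background in the control pool and 64.1% in the senecionine pool. The lowest signal so called was 20.6 units in the control pool and 10.8 units in the senecionine pool, and negative control spots had a standard deviation of 3.39 units in the control pool and a smaller one after senecionine. Cell type markers moved as well, and in a bulk sample fewer cells of a type and less RNA per cell cannot be told apart. All 4 hepatocyte markers that could be named out of 10 were below 0, with log2 ratios from -1.51 to -0.34. Alb, the albumin gene, was among the brightest genes in both pools, at 92727 and 55952 units. Of the 10 neutrophil markers 3 were measured and all were higher, from 1.73 to 6.53. The summed signal of these 3 was 367 units in the control pool and 10229 in the senecionine pool. A further 5 were well above background after senecionine only, as were 19.1% of all named genes. Of these 5, only Mmp8 (3.71-fold) and Csf3r (3.21-fold) had bounds past 2-fold. Elane was at 17.9 units in the control pool and 14.5 in the senecionine pool. The other listed types were measured in 4 to 9 of 10 markers each, with medians of -2.04 for sinusoidal endothelium, -1.28 for macrophages, -0.40 for stellate cells, 0.80 for lymphocytes and 1.00 for bile duct. Of 10 nervous system markers 8 were well above background in the control pool, and 5 of the 6 measured were at least 2-fold lower after senecionine (median -3.61). The summed signal of these 6 was 7500 and 578 units, although the tissue is labelled liver in both pools. The part of these markers in the values of the ATF4 genes was not tested.

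Across the list, more genes were higher after senecionine than lower. Of the 33 measured members 10 were at least 2-fold higher (30.3%), against 11.2% of all 7803 measured genes. Only Shmt2 and Aldh1l2 were at least 2-fold lower (6.06%), against 17.7% of all measured genes. A log2 ratio above 0, counted whatever its size, was seen in 27 of the 33 (81.8%) and in 43.7% of all measured genes. The median log2 ratio was 0.79 over the members and -0.14 over all measured genes. At 1.5-fold 21 members were higher and 2 lower, against 21.0% and 31.1% of all measured genes, and at 4-fold 3 were higher (Slc1a5, Ppp1r15a and Asns) and 0 lower, against 2.73% and 4.63%. The balance of all genes turned with the filter. Counting genes well above background in at least 1 pool, 22.6% of 10592 were at least 2-fold higher and 14.7% lower (median 0.10). Of 39 members 15 were then higher and 2 lower (median 0.86). The 6 members so added were detected after senecionine only, a filter that favours a higher call. Their ratios rest on control signals not well above background. Aldh18a1 and Vldlr count as higher there although their bounds were 1.62-fold and 1.36-fold.

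**Figure D1:**
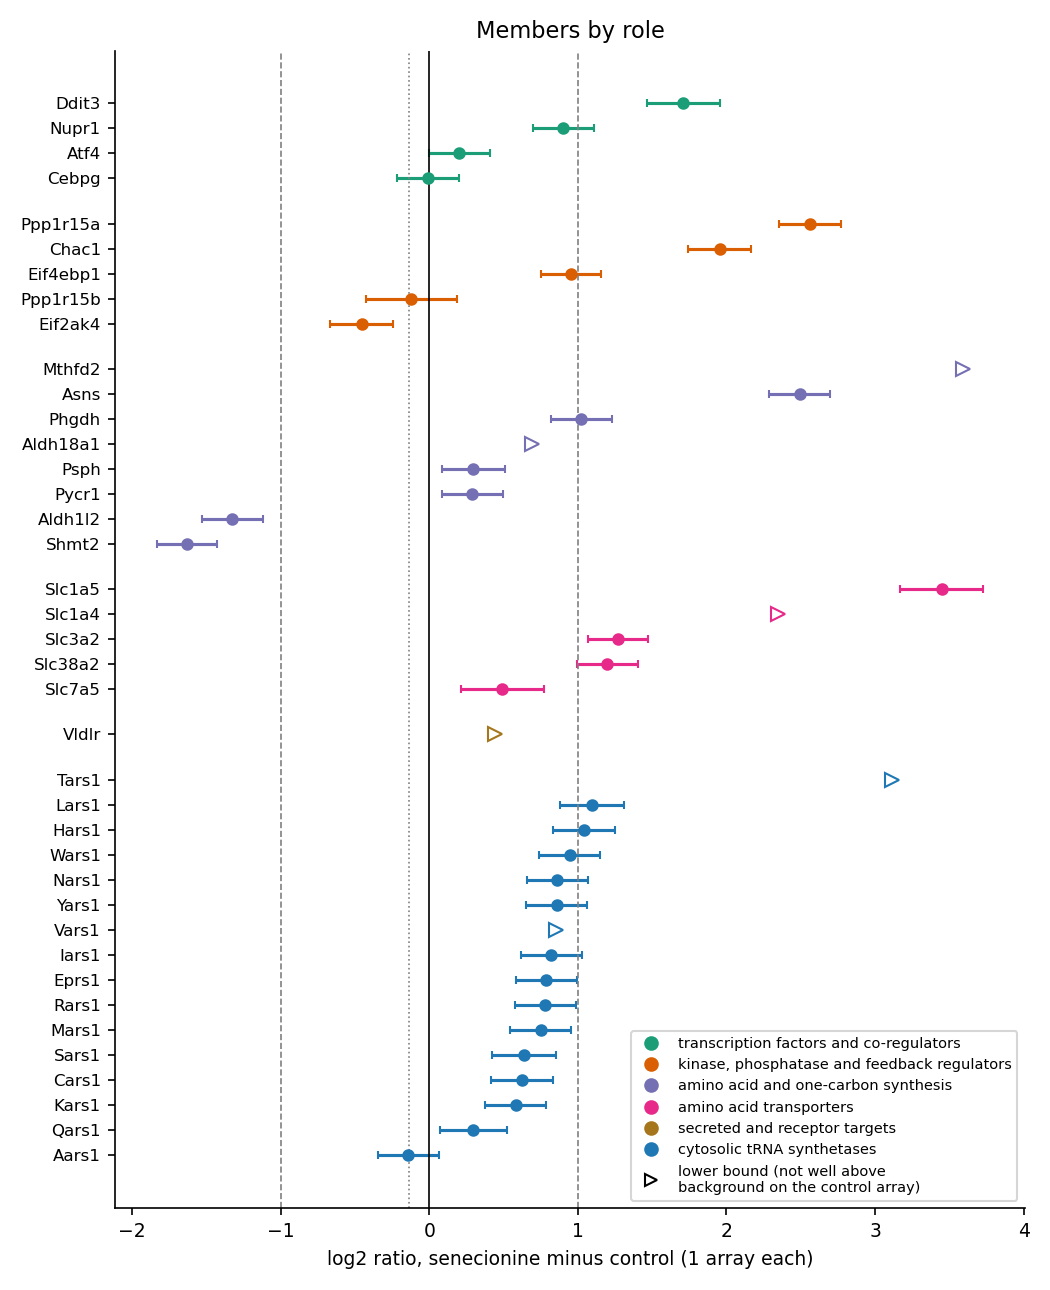
Log2 ratio (senecionine minus control, 1 array each) of the 39 members detected on at least 1 array, grouped by role and sorted within a role; filled points are members measured on both arrays with their spot error as bars, open triangles are lower bounds, dashed lines mark 2-fold and the dotted line the median of all measured genes (-0.14). The measured synthetases crowd between 0.30 and 1.09 apart from Aars1 at -0.14. The measured transporters and synthesis enzymes reach from -1.63 for Shmt2 to 3.45 for Slc1a5. The bound of Mthfd2 lies at 3.59, and the triangle of Vars1 marks its plain ratio.

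Among the transcription factors, Ddit3 was higher while Atf4 itself differed by less than its spot error. Atf4 was already among the brighter genes, at 2971 units in the control pool and 4532 in the senecionine pool, and its log2 ratio was 0.20 ± 0.20. With quantile, cyclic loess and normexp processing it was 0.42, 0.44 and 0.37, beyond that error and inside 2-fold. Its level is known to be set largely by translation, which these arrays do not measure. Ddit3, which encodes the pro-apoptotic factor CHOP, stood at 44.9 units in the control pool and 195 in the senecionine pool. It was 3.27-fold higher (log2 ratio 1.71 ± 0.25), with a log2 ratio of 1.09 after normexp background correction, which adds an offset to every signal and so draws dim genes together. Nupr1, a small chromatin-associated stress protein, went from 458 to 1134 units and stayed just inside 2-fold (0.90 ± 0.20). Cebpg, a dimer partner of ATF4, measured 213 and 281 units and had a log2 ratio of -0.01 ± 0.21. Its other, dimmer probe gave 0.82, so the probes of Cebpg disagree.

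Among the feedback regulators, Ppp1r15a and Chac1 were at least 2-fold higher. Ppp1r15a, the inducible subunit that brings phosphatase to eIF2, went from 145 to 1138 units and was 5.91-fold higher (2.56 ± 0.21), at rank 109 from the top of 7803 measured genes. Its constitutive relative Ppp1r15b was dim on both arrays, at 31.0 and 37.9 units, with a log2 ratio of -0.12 ± 0.30. The ratios of the pair lie apart by far more than their spot errors, the dimmer Ppp1r15b having the larger error. Chac1, an enzyme that breaks down glutathione and is a sensitive ATF4 target, measured 138 and 710.0 units and was 3.88-fold higher (1.96 ± 0.21). Its second probe was well above background in the senecionine pool only. Eif4ebp1, which binds the cap-binding factor eIF4E and holds back translation, was bright on both arrays (2540.3 and 6523 units) and stayed just short of 2-fold at 0.95 ± 0.20. It passed 2-fold under quantile normalization (1.17) and cyclic loess (1.20). Its other probe gave 0.83. Eif2ak4, the kinase GCN2 that senses uncharged tRNA, measured 140.5 and 136 units, a log2 ratio of -0.45 ± 0.21.

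The wider eIF2 machinery, 14 genes listed by function, gave 12 measured genes of which 2 passed 2-fold upward (16.7%, near the 11.2% of all measured genes) and 0 downward (median 0.36). The higher ones were Eif2ak3, the kinase PERK of the endoplasmic reticulum, at 56.3 and 202 units (2.71-fold), and the exchange factor subunit Eif2b3 (2.25-fold). Of the other eIF2 kinases, the haem-sensing Eif2ak1 had a log2 ratio of -0.97 and the RNA-sensing Eif2ak2 one of -0.34. Gcn1, the ribosome-bound activator of GCN2, stood at -0.95. Among the 4 kinases only PERK was therefore above 0.

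**Figure D2:**
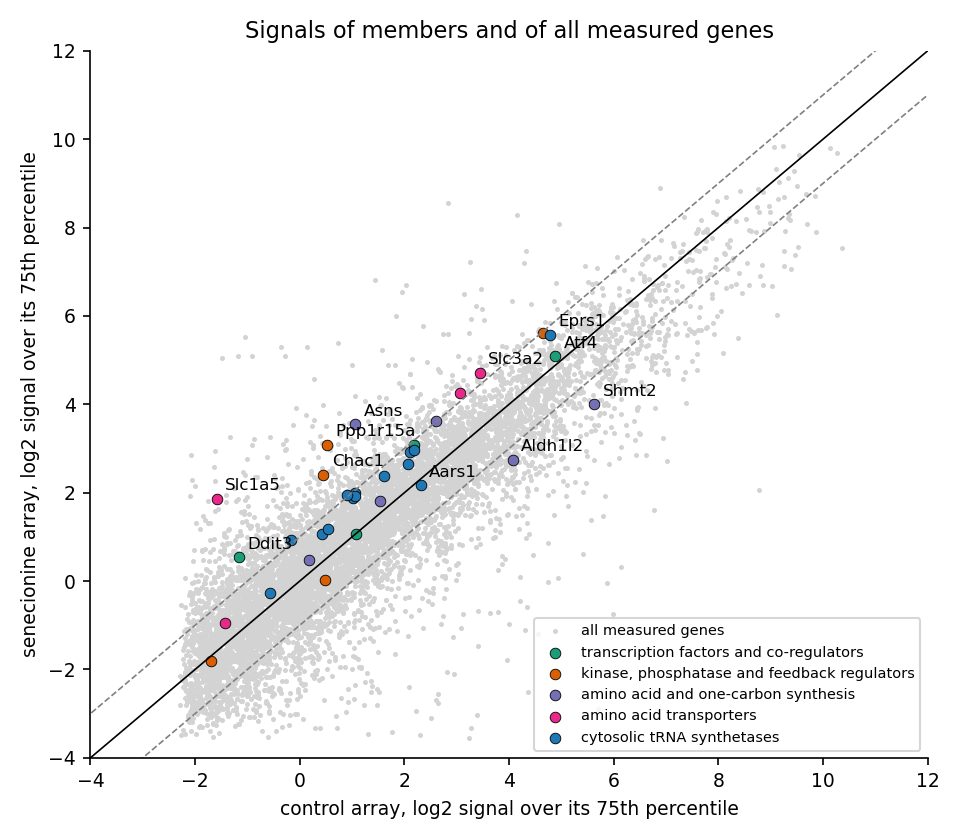
Log2 signal over the array's own 75th percentile in the control pool (horizontal) and the senecionine array (vertical), 1 array each, for all 7803 measured genes (grey) and the 33 measured members (coloured by role); the solid line is equality and the dashed lines mark 2-fold. Slc1a5, Ppp1r15a, Asns, Chac1 and Ddit3 lie well above the upper dashed line at low to middle control signal, Atf4 lies close to the diagonal at high signal with Eprs1 above it inside the dashed line, and Shmt2 and Aldh1l2 lie below the lower dashed line.

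Enzymes of amino acid synthesis did not share a direction. Asns, the asparagine synthetase and a classic marker of amino acid stress, measured 211 units in the control pool and 1572 in the senecionine pool. It was 5.63-fold higher (2.49 ± 0.21), rank 120 of 7803. Of the 3 enzymes that make serine from glycolytic 3-phosphoglycerate, the first, Phgdh, went from 611 to 1647 units and was 2.03-fold higher (1.02 ± 0.20). With median scaling Phgdh stood at 0.90, inside 2-fold. The second, Psat1, was not well above background on either array (7.92 and 12.9 units). The last, Psph, measured 115 and 187 units, a log2 ratio of 0.30 ± 0.21. Of the proline enzymes, Pycr1 was at 0.29 ± 0.21 (292 and 473 units). Aldh18a1 was not well above background in the control pool (4.97 units against 44.1) and at least 1.62-fold higher.

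The mitochondrial folate enzymes split in opposite directions. Shmt2, which passes the carbon of serine to mitochondrial folate, was the lowest of the measured members. It went from 4981 to 2135 units and was 3.09-fold lower (-1.63 ± 0.20). Aldh1l2, which oxidises formyl-folate in the same compartment, went from 1692 to 896 units and was 2.50-fold lower (-1.32 ± 0.20). Its other probe gave -1.11, and with normexp correction the ratio was -0.99. Mthfd2, the enzyme that acts between Shmt2 and formate release and is scarce in normal adult tissue, was not well above background with any of its 3 probes in the control pool, and all 3 were well above it in the senecionine pool. Its brightest probe gave 7.46 units in the control pool and 329 in the senecionine pool, at least 12.1-fold higher. The bound sets the bright signal against the lowest signal called well above background. Detection in the senecionine pool only was common, at 2612 of 13667 named genes (19.1%), but of those 12.2% had a bound of at least 2-fold.

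Of 14 other one-carbon and serine-glycine enzymes 9 were measured. Of these 3 were at least 2-fold lower (33.3%, against 17.7% of all measured genes) and 1 higher (11.1%, against 11.2%), with a median of -0.83. Sds, which breaks serine down, was 10.6-fold lower, the cytosolic formyl-folate oxidase Aldh1l1 3.69-fold and the glycine cleavage enzyme Amt 2.46-fold lower. The thymidylate synthase Tyms was 3.23-fold higher. Mthfd1l, which releases formate from mitochondria, was not well above background in the control pool and at least 4.55-fold higher, beside Mthfd2.

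Amino acid transporters held the highest ratio among members measured in both pools. Slc1a5, a neutral amino acid exchanger that carries glutamine, was dim in the control pool at 33.7 units and stood at 487 in the senecionine pool. It was 10.9-fold higher (3.45 ± 0.28), rank 39 of 7803, and with normexp correction its log2 ratio was 2.28. Its close relative Slc1a4 was not well above background in the control pool (7.69 units), measured 139 in the senecionine pool and was at least 5.09-fold higher. Slc3a2, the heavy chain that carries several exchangers to the membrane, was bright on both arrays (1096 and 3508 units) and 2.41-fold higher (1.27 ± 0.20). Slc7a5, one of its light chains, was dim at 37.4 and 69.7 units and had a log2 ratio of 0.49 ± 0.28. Of this pair the heavy chain passed 2-fold. Slc38a2, a sodium-coupled carrier induced by amino acid lack, went from 845 to 2571 units and was 2.29-fold higher (1.20 ± 0.20), with 1.98 on its dimmer probe. The cationic amino acid carrier Slc7a3 was not well above background on either array.

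Of the remaining targets, Vldlr, a lipoprotein receptor, was at 5.13 units in the control pool, not well above background, and 37.1 in the senecionine pool, at least 1.36-fold higher. Stc2, a secreted glycoprotein, was not well above background on either array (4.50 and 7.07 units).

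The cytosolic tRNA synthetases, which attach amino acids to their tRNAs, lay mostly between a log2 ratio of 0.58 and 1.09, with Aars1 and Qars1 below. Of 17 listed, 16 had a named probe and 14 were measured. Of these 13 had a log2 ratio above 0, but only Lars1 and Hars1 passed 2-fold (14.3%), a share near the 11.2% of all measured genes. None was at least 2-fold lower. At a threshold of 1.5-fold the count was 11 of 14, against 21.0% of all measured genes. Their median was 0.78, with quartiles of 0.63 and 0.86, against quartiles of -0.74 and 0.46 over all measured genes. The standard deviation across the 14 genes was 0.32, against 1.13 across all measured genes and 1.29 across the other 19 measured members. Split by mean signal into 4 equal bins, 13 of the 14 lay in the middle 2 bins, where the median log2 ratio of all genes was 0.03 and -0.08.

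In order, Aars1 (alanine) was lowest, at 500.2 and 602 units and a log2 ratio of -0.14 ± 0.21, less than its own error, and it turned to 0.21 with normexp correction. Qars1 (glutamine) followed at 0.30 ± 0.23. The next were Kars1 at 0.58, Cars1 at 0.62 and Sars1 at 0.64, then Mars1 at 0.75, Rars1 at 0.78 and Eprs1 at 0.79. Eprs1, which charges both glutamate and proline, was the brightest synthetase, with 2790.2 units in the control pool and 6390 in the senecionine pool. It passed 2-fold under quantile normalization (1.01), cyclic loess (1.04) and normexp correction (1.22). Above it came Iars1 at 0.82, Yars1 and Nars1 at 0.86 each, Wars1 at 0.94, Hars1 at 1.04 and Lars1 at 1.09 ± 0.22. The gap between Aars1 and Qars1 was 0.44 with an error of 0.31, and every other gap between neighbours was smaller than its error. Neighbours above Aars1 are thus not told apart. Some genes farther apart differed by more than the spot error, with Lars1 0.80 ± 0.31 above Qars1 and 0.51 ± 0.30 above Kars1. With normexp correction Lars1 was at 0.80 and Kars1 at 0.69, so the size of such gaps depends on the processing. Leucine's enzyme Lars1 went from 89.9 to 254 units, and histidine's Hars1 from 188 to 513. Both lay inside 2-fold with median scaling, at 0.97 and 0.91, and Lars1 also with normexp correction, at 0.80.

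For 4 measured synthetases a second probe was measured. The probes of Mars1, Nars1 and Wars1 lay within 0.12, 0.01 and 0.33 of each other. For Iars1 the dimmer probe, 33.4 units in the control pool, gave 1.90 against 0.82 on the brighter, so the probes differ on whether Iars1 passed 2-fold. The second probe of Lars1 (17.8 and 20.7 units) and that of Rars1 (6.87 and 25.7 units) were well above background after senecionine only. Of the synthetases outside the measured set, 2 were detected after senecionine only, a filter that favours a higher signal there. Tars1 (threonine) was not well above background in the control pool (11.5 units against 237) and at least 8.67-fold higher. Vars1 (valine) was not well above background there either, at 33.4 units against 80.1. Its control signal exceeded the lowest signal called well above background, so its 1.81-fold is a plain ratio (log2 ratio 0.85 ± 0.37) and not a bound.

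Several of these enzymes sit in a multi-synthetase complex with scaffold proteins. Eprs1, Iars1, Kars1, Lars1, Mars1, Qars1 and Rars1, which belong to it, had a median of 0.78, and the 7 measured enzymes outside it one of 0.86. This grouping was made after the values were seen. The scaffold genes Aimp1, Aimp2 and Eef1e1 had log2 ratios of 0.94, 0.80 and 0.75. Farsb, a phenylalanine enzyme subunit outside the list, was at -0.17. Its partner Farsa was well above background after senecionine only, at 32.1 and 48.6 units with spot errors of 7.78 and 5.63 units. Its scaled ratio of 1.14-fold is a plain ratio and not a bound.

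The mitochondrial synthetases listed here, nuclear genes whose enzymes charge the tRNAs of mitochondria, lay on the other side. Of 12 measured, 10 were below 0 and 4 at least 2-fold lower, with none at least 2-fold higher (median -0.67). The 4 are 33.3% of the 12, against 17.7% of all measured genes, and 16.7% lay above 0, against 43.7% of all, whose median was -0.14. Cars2 was 4.69-fold lower (623 and 176 units), Fars2 3.59-fold, Sars2 2.87-fold and Vars2 2.28-fold lower. Ears2 and Wars2 were the 2 above 0, at 0.63 and 0.06.

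For 8 amino acids charged by a measured member the mitochondrial enzyme was measured too, Eprs1 standing in 2 of these pairs. The cytosolic ratio was the greater in 7 of the 8, by more than the error of the difference in 6, and by at least 1 in 5. The difference was 2.85 ± 0.29 for cysteine, 2.16 ± 0.30 for serine, 1.35 ± 0.29 for proline (Eprs1 against Pars2), 1.29 ± 0.29 for arginine, 1.15 ± 0.29 for tyrosine and 0.88 ± 0.41 for tryptophan. It was 0.16 ± 0.29 for glutamate and -0.06 ± 0.39 for alanine, inside the error for both. The errors are spot errors within single arrays.

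**Figure D3:**
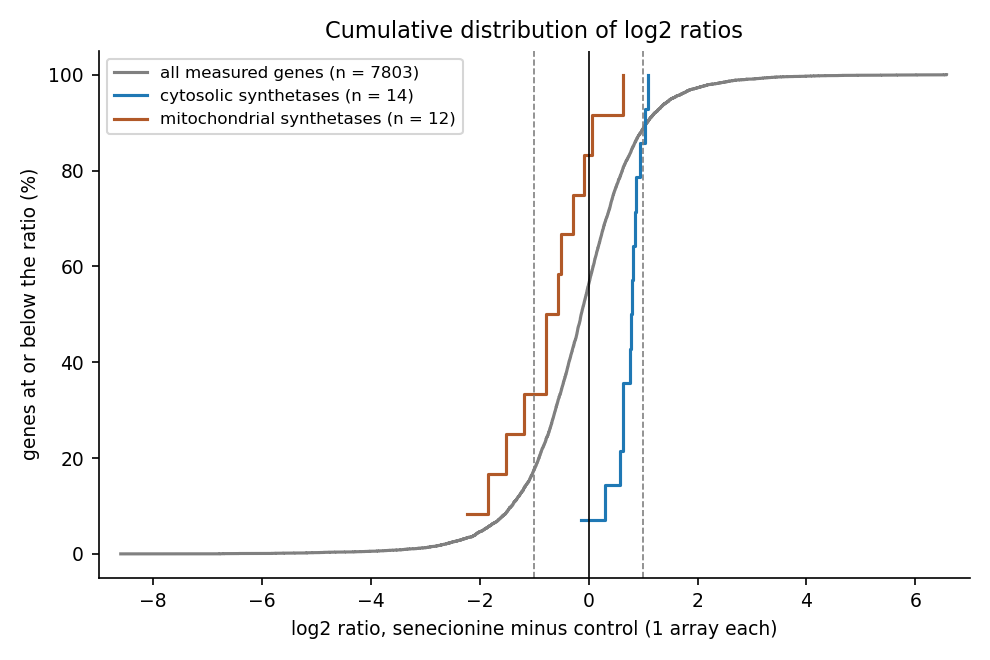
Cumulative share of genes (percent) at or below a log2 ratio (senecionine minus control, 1 array each) for all 7803 measured genes, the 14 measured cytosolic synthetases and the 12 measured mitochondrial synthetases; dashed lines mark 2-fold. The cytosolic curve climbs steeply between 0.58 and 1.09, and the mitochondrial curve lies to the left of all genes, with a median of -0.67.

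Further known ATF4 targets, 24 genes listed by function, went both ways. Of 19 measured, 5 passed 2-fold upward (26.3%, against 11.2% of all measured genes) and 4 downward (21.1%, near the 17.7% of all). Their median of -0.15 was close to the -0.14 of all genes. Higher were Atf3, a stress transcription factor (53.2 and 4593 units, log2 ratio 6.02), the secreted stress signal Gdf15 (16.3-fold), the growth arrest gene Gadd45a (9.73-fold), the hormone Fgf21 (7.12-fold) and the vascular growth factor Vegfa (3.44-fold). Several of these also answer to other factors such as p53. Sesn2 and Ddit4, both brakes on the growth kinase mTORC1, were at 0.37 and 0.22, and Cebpb was at 0.87. Lower were Cbs (9.51-fold) and Cth (2.64-fold), which make cysteine from homocysteine, and the aminotransferases Gpt2 (4.78-fold) and Got1 (3.33-fold). The 4 measured hepatocyte markers were below 0 as well, and their part in these values was not tested. Ndrg1, a stress-induced gene, was at 17.4 units in the control pool and 886 in the senecionine pool, at least 32.5-fold higher.

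The authors' deposited table lists only probes that differ by at least 2-fold in their own scaling. It holds 22 of the members, 20 as higher and 2 as lower, the latter Shmt2 and Aldh1l2. Of those higher, Aldh18a1, Mthfd2, Slc1a4, Tars1 and Vldlr were not well above background in the control pool. Over all named genes in the authors' deposited table, 2032 of 3516 were higher (57.8%) and 1484 lower. In the authors' deposited table the log2 difference was 2.68 for Ppp1r15a, 2.67 for Asns and 3.58 for Slc1a5. The authors' deposited table also holds Eif4ebp1 (1.26), Nupr1 (1.06), Eprs1 (1.09) and Wars1 (1.00), which lay inside 2-fold here. It holds Iars1 by its dimmer probe only (1.98), while the brighter probe gave 0.82 here.

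**Figure D4:**
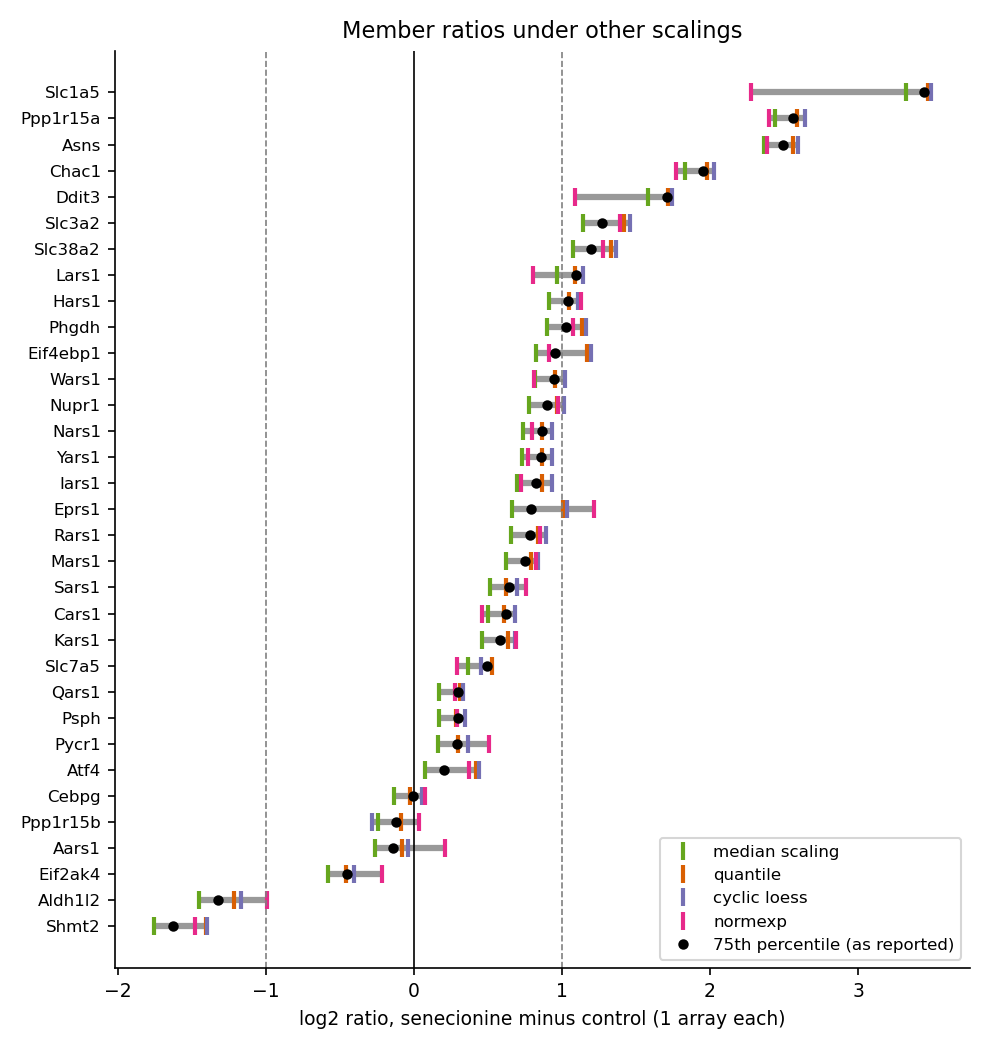
Log2 ratio (senecionine minus control, 1 array each) of the 33 measured members, with black points for the scaling used in the text, coloured ticks for median scaling, quantile normalization, cyclic loess and normexp background correction, a grey bar for the range over these and dashed lines at 2-fold. Of the 33, 30 kept their sign in all 4; Cebpg, Ppp1r15b and Aars1, close to 0, did not.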

How the data were processed

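Liver RNA of 1 control pool and 1 senecionine pool was measured on 2 one-colour arrays. The deposited intensity is the processed signal of Agilent Feature Extraction 10.7.3.1. Per the file headers it is background-subtracted and detrended within an array, with no scaling between arrays. The authors' deposited table holds log2 values of unstated scaling, with column medians of 6.03 and 6.10. Its columns were assigned by sample label, and all 7355 shared probes lay on the same side as in the scanner signals.

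Here log2 processed signal minus the array's 75th percentile was taken, spots with an outlier flag were left out (522 and 497), and spots of a probe were averaged. Probes were named through RefSeq transcript accessions (GRCr8 gene table, 17250 of 40516 probes). The brightest probe well above background on both arrays represented a gene. A gene detected on 1 array only received a lower bound. It is the bright signal over the dim probe's own or the lowest signal well above background there, whichever was higher. Where the dim probe's own signal was the higher, as for Vars1 and Farsa, the value is a plain ratio and not a bound. With 1 array per group nothing was tested; genes were counted at 2-fold. The reduction was tested on simulated data of 8043 genes: drawn from the control array's signals and spot errors, 47 of 50 genes set to -1.5, 48 of 50 set to 1.5 and 11 of 7843 unchanged genes passed 2-fold. This checks the counting only. The number of arrays limits the precision.

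Members and lists were chosen with earlier results of these data known. All members are accounted for; each further list names up to 4 measured genes with the largest ratio, plus Atf3, Sesn2, Ddit4, Cebpb, Eif2ak3, Farsa and Farsb; 1 further gene of this rule is not reported here. Genes named beside these were chosen after their values were seen. Alternatives were median, quantile and cyclic loess scaling, normexp correction (offset 50, on median signals, since mean signals were not used here), other filters, probe rules and fold thresholds, and the authors' values. The array was designed on an older genome build, so gene positions are not printed; promoter windows are RefSeq's, build GRCr8. The complex grouping and the cytosolic-mitochondrial pairs were added after the values were seen. Scaling by loess and normexp used limma 3.58.1 in R 4.3.3; all else ran in Python 3.11.15 (pandas 2.3.3, numpy 2.4.6), with plots by matplotlib 3.10.9.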

Additional observations from a re-analysis of the deposited data

How the results depend on the processing

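Of 10 members at least 2-fold higher, 7 stayed so under median, quantile, cyclic loess and normexp processing. The count of members higher was 21 at 1.5-fold, 3 at 4-fold and 20 with the authors' values, a list selected at 2-fold. Members lower numbered 1 with normexp correction and 0 at 4-fold. Cytosolic synthetases at least 2-fold higher numbered 0 with median scaling, 4 with cyclic loess, 11 at 1.5-fold, 0 at 4-fold and 6 of 6 listed with the authors' values. The cause was not tested beyond the thresholds' own construction. Under every setting that used the scanner signals, the members' median lay between 0.66 and 0.93. The mitochondrial synthetases' median lay between -0.80 and -0.39 under the same settings. Median scaling shifted the median of all genes by -0.13, and the members' median stood 0.92 above that of all genes with it as without it. The authors' values gave medians of 1.65 for members, -1.48 for mitochondrial synthetases and 1.11 for all named genes. That list was selected at 2-fold, so these medians are not comparable with the others. The element was found in 12 members with the stricter letters. No paired analysis was possible because each group is 1 array. The 6 members seen after senecionine only have bounds, whose size the control pool's background sets, apart from Vars1, whose value is its plain ratio.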

Other observations

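Of 23 amino acid transporters outside the list 13 were measured. Of these 4 were at least 2-fold lower (30.8%, against 17.7% of all measured genes) and 1 higher (7.69%, against 11.2%), with a median log2 ratio of -0.68. The glutamate carriers Slc1a3 and Slc1a2 were 5.73-fold and 2.21-fold lower, the neutral amino acid carrier Slc7a10 3.48-fold and the glutamine carrier Slc38a3 3.03-fold lower. Slc1a2, Slc1a3 and Slc7a10 are known from astrocytes as well, and 5 of 6 measured nervous system markers were at least 2-fold lower; their part in these values was not tested. Slc7a8, a light chain partner of Slc3a2, went from 84.9 to 436 units and was 3.87-fold higher. Slc38a4, the brightest of these carriers at 10483 and 10915 units, had a log2 ratio of -0.35. The cystine carrier Slc7a11, a known ATF4 target, was not well above background in either pool (6.88 and 2.81 units).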
